A study of Mus musculus with 8 samples.

Results

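Many DNA regions were accessible in all 4 ATAC-seq libraries of NIH3T3 cells. Of these, 691 stood lower in the ranking of peak strength in G2 than in G128 cultures, by at least 10 percentile points. They were chosen by the p-values of the deposited peak lists. Peaks of the 4 lists that shared at least 1 bp were merged into 45915 regions, of which 27302 lay on the 19 autosomes and had a peak in every list. In each library these 27302 regions were ranked by the largest −log10 p-value of their peaks, from percentile 0 for the weakest to 100 for the strongest. A region was kept when its lower G128 percentile exceeded its higher G2 percentile by at least 10 points, and this distance is called its margin. The mirrored rule gave 692 regions that gained rank on G2. Each direction therefore held 2.53% of the regions ranked.

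ATAC-seq uses the Tn5 transposase, which inserts sequencing adapters where DNA is not wrapped in nucleosomes or otherwise covered. Sites of this kind are mostly promoters, enhancers and other elements bound by regulatory proteins, and the height of a peak reflects how often a site was cut in the population of cells. Fibroblasts sense the surface they attach to through integrins and the actin cytoskeleton, and this attachment is known to affect the shape of the nucleus and the activity of many genes. A rank compares a region only with the other regions of its own library, so a lower rank means a lower place among the accessible regions and not by itself a lower signal.

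NIH3T3 is an immortalised line of fibroblasts from mouse embryos. The cells were cultured for 24 h on G128 or on G2, names that the labels do not explain, in a study of hydrogels made of polyvinyl alcohol and gelatin. Each group had 2 ATAC-seq libraries, and the growth conditions in the labels mention HeLa cells as well, although all 8 samples are labelled NIH3T3. The labels name no separate cultures for the replicates, so the spread between libraries may be technical. The genes at the positions below were not annotated here, and the labelled cell type was not checked against marker genes.

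Successive whole numbers behind the p-values of each list gave the number of sequenced intervals that overlapped at each summit (the pileup). The mean background was 1.05 and 1.41 intervals per bp in G128 replicates 1 and 2, and 1.10 and 1.37 in G2 replicates 1 and 2. Replicate 1 was thus the shallower library in both groups. Over all 27302 regions the median summit stood 50.3 and 58.1 times above the background mean on G128, and 67.3 and 67.9 times on G2. The median difference between the groups was 0.34 on the log2 scale, higher on G2, and the losing regions have to be read against this general shift.

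The regions that lost rank were weak to moderate sites. Their median percentile was 40.7 and 39.2 in G128 replicates 1 and 2, and 18.4 and 17.98 in G2 replicates 1 and 2. Their median summit was 44 intervals in G128 replicate 1 and 66 in G128 replicate 2, against 41 and 51 in G2 replicates 1 and 2. On G128 these pileups ranged from 28 to 181 in replicate 1 and from 41 to 191 in replicate 2, and on G2 from 21 to 121 and from 27 to 151. The median difference between the group means was 18.97 percentile points, with a range of 10.5 to 45.2. These values follow from the way the regions were chosen and are given as a description, with no test.

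**Figure D1:**
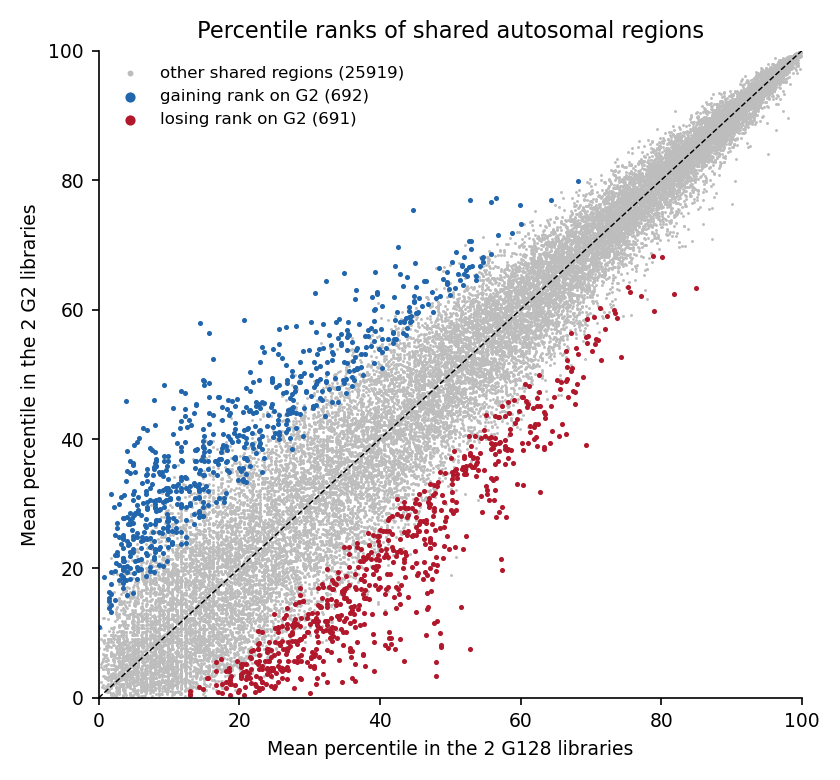
Mean percentile of each shared autosomal region in the 2 G128 libraries (horizontal axis) and in the 2 G2 libraries (vertical axis), with the diagonal dashed. The 691 regions losing rank (red) lie below the diagonal, none of them has a mean percentile over the 4 libraries above 80, and the cloud narrows towards the strongest regions.

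Most of the losing regions lay low in the ranking. Of the 691 regions, 492 (71.2%) had a mean percentile over the 4 libraries between 10 and 40, where 33.7% of all ranked regions lay. Only 90 had a mean above 50, 4 had one above 70 and 0 had one above 80, where 5407 of the ranked regions lay. The gaining regions were spread in nearly the same way, with 72.1% between 10 and 40 and 83 above 50. The 2 libraries of a group differed by a median of 4.05 points on G128 and 3.55 points on G2 in the losing regions, and by 4.47 and 3.40 points over all regions.

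Without scaling to the other regions, most but not all losing regions also had the lower summit on G2. The summits come from the same p-values as the ranks, so this order follows in part from the choice of the regions and is no separate evidence. The summit over the background was lower in both G2 libraries than in both G128 libraries in 453 of the 691 regions, against 761 of all 27302 regions (2.79%). None of the losing regions had the reverse order, which 18444 of all regions had. The median difference of the losing regions was −0.24 on the log2 scale of the summit over the background, with a range of −0.999 to 0.02, and 687 of the 691 values were below 0. After division by the median of each library the median was −0.57, and the G2 libraries were below the G128 libraries in all 691. For 238 regions the order of the 4 libraries therefore depended on this scaling. Gaining regions had a median of 0.81 without the scaling and 0.49 with it.

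The margins were mostly small. Of the 691 regions, 253 had a margin of at least 15 points, 102 of at least 20, 30 of at least 25, 10 of at least 30 and 1 of at least 40. The lower G128 value came from replicate 1 in 304 regions and from replicate 2 in 387, and the higher G2 value came from replicate 1 in 328 and from replicate 2 in 363. No single library set the margin throughout.

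The largest loss of rank was at 1:194571748-194572699, a region 952 bp long on chromosome 1 (coordinates on mm9, counted from 1). Its summit held 48 intervals in G128 replicate 1 and 83 in G128 replicate 2, and 28 and 36 in G2 replicates 1 and 2. The exact 95% Poisson intervals of these counts were 35.4 to 63.6 and 66.1 to 102.9 on G128, and 18.6 to 40.5 and 25.2 to 49.8 on G2. They cover counting error only, since overlapping intervals need not be independent molecules. The 2 G128 values stood at percentiles 45.2 and 50.7 and the 2 G2 values at 2.9 and 3.8. Relative to the background the summit was 52.2 ± 9.39 on G128 and 25.9 ± 0.589 on G2 (SD, n = 2 each), a ratio of 0.496. The log2 difference of the summit over the background, −0.999, was the lowest of the 691. Both G2 libraries lay below both G128 libraries in pileup and summit over the background, and in percentile, as the rule requires.

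The next region, 13:23504214-23504904, was 691 bp long. Its summit held 53 and 75 intervals on G128 and 33 and 35 on G2, and its percentiles were 50.1 and 45.8 against 7.8 and 3.1. The region at 3:154291172-154291656 had 63 and 78 intervals on G128 and 30 and 44 on G2, and its percentiles were 57.9 and 47.7 against 4.7 and 10.5. Both regions thus moved from the middle of the ranking to its lowest part. At 6:134423194-134423622 the summit held 46 and 72 intervals on G128 and 29 and 41 on G2. The summit at 16:45077652-45078096 held 50 and 75 intervals on G128 and 36 and 41 on G2, with all 4 summits within 12 bp. In these regions the G2 libraries had fewer intervals than the G128 library of the same replicate number. On the percentile scale the groups did not overlap, as the rule requires.

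Narrow sites were also among the largest losses. The region at 5:7276433-7276547 was 115 bp long, the narrowest of the 691, and its summits in the 4 libraries lay within 4 bp. It held 46 and 90 intervals on G128 and 28 and 47 on G2, so that G2 replicate 2 and G128 replicate 1 had nearly the same pileup at unequal depth. The region at 11:68875768-68875931 was 164 bp long and held 50 and 82 intervals on G128 and 25 and 48 on G2. Its percentiles were 47.3 and 50.2 on G128 and 1.0 and 14.6 on G2.

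The 20 regions with the largest margins, 27.2 to 41.4 points, lay on 11 chromosomes, with 4 on chromosome 1 and 4 on chromosome 11. Their summits held 37 to 90 intervals on G128 and 25 to 51 on G2. The summit over the background on G2 was 0.496 to 0.711 of that on G128, and both G2 libraries were below both G128 libraries in 20 of 20. With margins this large, that order was nearly set by the choice of the regions. The mean G128 percentile was 34.6 to 57.4 and the mean G2 percentile 2.4 to 19.8. Widths ran from 115 to 1412 bp with a median of 470 bp. In 10 of the 20 all 4 summits lay within 50 bp, and the widest spread of summits was 395 bp, at 1:17479329-17479980.

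**Figure D2:**
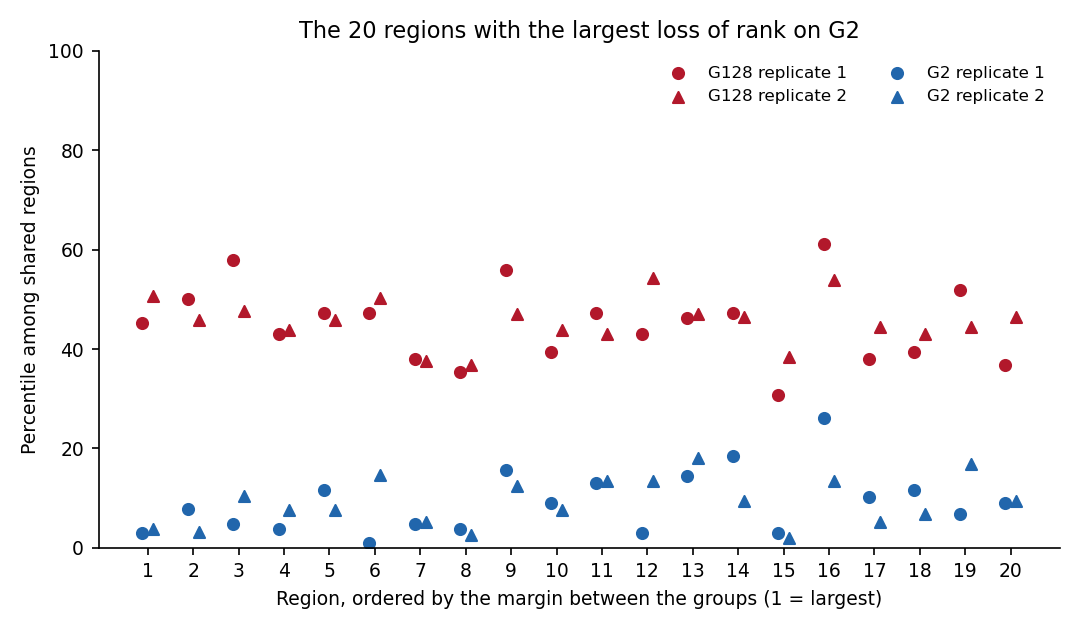
Percentile in each of the 4 libraries (vertical axis) for the 20 regions with the largest margins, in order of margin (horizontal axis). G128 libraries are red and G2 libraries blue, circles are replicates 1 and triangles replicates 2; mean G128 percentiles run from 34.6 to 57.4 and mean G2 percentiles from 2.4 to 19.8.

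A few losing regions were strong sites on G128. The region at 3:35579366-35579910 stood at percentiles 90.5 and 79.3 on G128 and at 64.0 and 62.7 on G2, a difference of 21.5 points that was 13.8 points without G128 replicate 1. Its summit held 181 intervals in both G128 libraries, against 104 and 129 on G2. Relative to the background these were 172 and 128.2 times on G128 and 94.6 and 94.3 times on G2, and the 4 summits lay within 6 bp. The region at 4:152527102-152527367, at percentiles 85.8 and 78.0 on G128, held 148 and 173 intervals on G128 and 100 and 127 on G2, with summits within 2 bp. The region at 11:59197737-59198507 held 111 and 185 on G128 and 92 and 120 on G2. At 1:152011925-152012799 and 11:94002755-94003588 the G2 libraries held 121 and 146 and 118 and 151 intervals, against 116 and 191 and 113 and 179 on G128. In these last 2 regions G2 replicate 1 had more intervals than G128 replicate 1, while G2 replicate 2 had fewer than G128 replicate 2. The mean summit over the background on G2 was 0.883 and 0.930 of that on G128 in these 2 regions.

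At the threshold, the 3 regions just inside had a margin of 10.01 points, at 11:62064397-62065113, 18:75081228-75082023 and 3:87711179-87712041. The 3 just outside had 9.996, 9.994 and 9.992 points, at 2:27702588-27702933, 18:38365042-38365538 and 11:35287264-35287429. At 18:75081228-75082023 the summit held 45 and 71 intervals on G128 and 50 and 65 on G2, and the ratio of the summit over the background was 0.9999. This region lost rank with nearly the same summit over the background in both groups.

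The pileups of single summits were small counts. When each summit was given its exact 95% Poisson interval and scaled to the median of its library, the intervals of both G128 libraries lay above those of both G2 libraries in 19 of the 691 losing regions and in 42 of all 27302. In the other 672 losing regions the intervals of at least 1 G128 and 1 G2 library overlapped, which does not show that a difference was absent.

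Losing regions were narrower than the average accessible region, as weak regions in general were. Their median merged width was 460 bp (quartiles 322 and 648 bp), against 504 bp for gaining regions and 638 bp for the remaining 25919 regions. In every band of 10 points of mean percentile from 0 to 70 the losing regions had the larger median, by little in some bands. Gaining regions also had a larger median than the remaining ones in the bands from 0 to 60. Between 70 and 80, with 4 losing regions, the medians were 689.5 bp for losing and 908 bp for the remaining regions. Between mean percentiles 10 and 20 the medians were 341 bp for losing and 323 bp for the remaining regions. Between 30 and 40 they were 528 and 476 bp, and between 50 and 60 they were 664 and 663 bp. Of the 542 shared regions at least 2 kb wide, 3 lost rank and 0 gained rank.

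**Figure D3:**
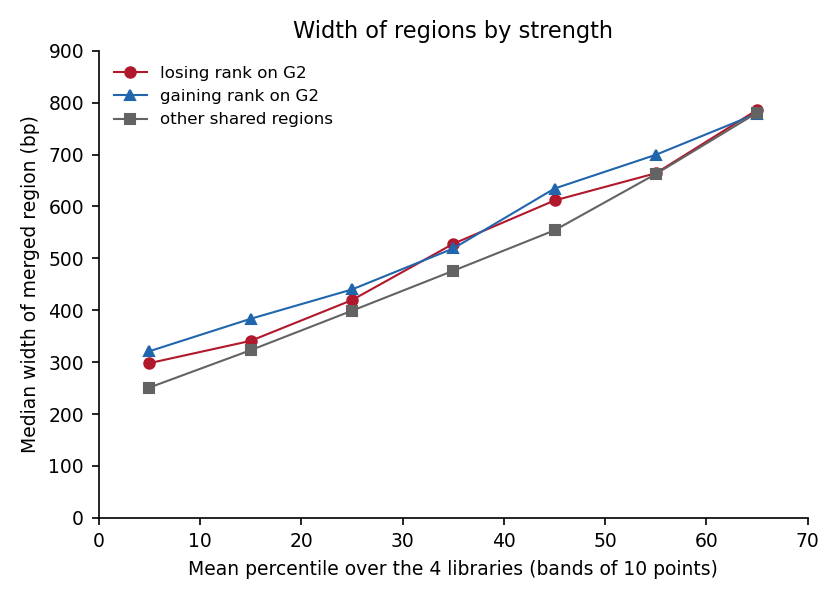
Median width of the merged regions in bp (vertical axis) by mean percentile over the 4 libraries in bands of 10 points (horizontal axis), for losing, gaining and other shared regions. All 3 lines climb with strength and lie close together, from 298, 321 and 251 bp in the lowest band to 786, 779 and 781 bp between 60 and 70.

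The 3 wide losing regions differed in shape. The widest, 11:3049447-3052198, was 2752 bp long, had summits of 86 and 117 intervals on G128 and 76 and 95 on G2, and its strongest points lay up to 1801 bp apart between libraries. At 1:134187645-134189745 the G128 libraries had 2 and 1 peaks and the G2 libraries 2 and 3 peaks, with summits of 47 and 90 against 50 and 58 intervals. At 12:87417211-87419239 summits of 42 and 65 intervals stood against 46 and 59, a ratio over the background of 0.989.

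The strongest peak in a losing region was about as wide on both cultures, where other shared regions had wider peaks on G2. Its median width was 345 and 419 bp on G128 and 329 and 371 bp on G2. In the remaining regions it was 431 and 517 bp on G128 and 533 and 601 bp on G2. Peaks covered a median of 86.9% and 96.5% of a losing region on G128 and of 81.8% and 89.6% on G2, while in the remaining regions the order was reversed, with 77.5% and 90.1% on G128 and 91.9% and 98.3% on G2. In G2 replicate 2, 39 losing regions (5.64%) were split into several peaks, against 2.66% of the remaining regions, and in G128 replicate 1 the shares were 6.22% and 9.65%. Peak width depends on the same p-values as the ranks, so these values are no independent evidence.

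The position of the summit changed little between the cultures. The median distance between the summits of 2 libraries in a losing region was 14 bp within G128 and 17 bp within G2, and 15 to 19 bp over the 4 pairs between the groups. The remaining regions had medians of 10 to 13 bp for all 6 pairs. Between mean percentiles 10 and 40, losing regions had 16 to 21 bp and the remaining regions 15 to 20 bp. Summits more than 150 bp apart were found in 7.96% to 10.9% of losing regions between the groups, and in 7.67% and 8.83% within G128 and within G2.

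Every autosome held losing regions, from 15 on chromosome 14 to 76 on chromosome 11. The share of ranked regions that lost rank was lowest on chromosome 4, at 1.48% (27 of 1825, Wilson 95% interval 1.02 to 2.14%), where 2.74% gained rank. It was highest on chromosome 8, at 3.18% (47 of 1479, 2.40 to 4.2%), and on chromosome 6, also at 3.18% (54 of 1700, 2.44 to 4.12%). The interval of chromosome 4 lay below the share of 2.53% over all autosomes, and those of chromosomes 6 and 8 included it. These chromosomes were picked as the extremes of the 19 autosomes, and their intervals make no allowance for that choice. On chromosome 18, 20 regions lost and 9 gained rank, and on chromosome 3, 38 lost and 23 gained. Neighbouring regions are not independent, so these intervals cover counting error only.

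**Figure D4:**
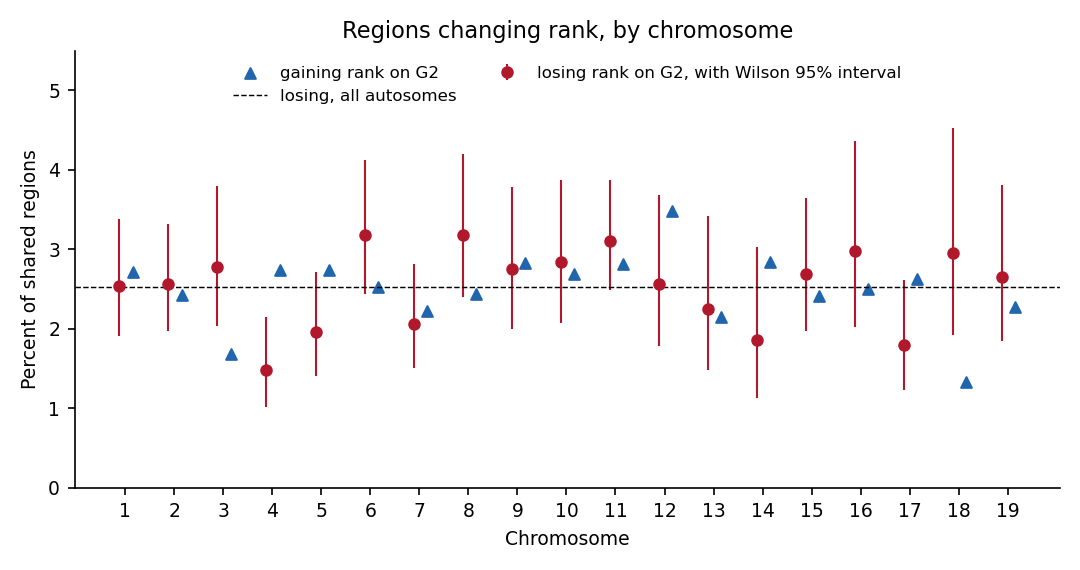
Percent of the shared regions of each chromosome that lost rank (red, bars are Wilson 95% intervals) or gained rank (blue) on G2, with the share of losing regions over all autosomes dashed. Chromosome 4 is lowest at 1.48% and chromosomes 8 and 6 are highest at 3.18%.

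Most losing regions were single sites. Of the runs of neighbouring shared regions that all lost rank, 618 held 1 region, 32 held 2 and 3 held 3. The nearest other losing region was a median of 533 kb away, and the nearest gaining region to another gaining one 597 kb. At short distances losing regions were found together more often: 71 of 691 (10.3%, Wilson 95% interval 8.23 to 12.8%) had another within 10 kb, against 28 of 692 gaining regions (4.05%, 2.81 to 5.79%). Within 100 kb the shares were 26.05% (22.9 to 29.4%) and 19.1% (16.3 to 22.2%), and within 1 Mb 63.1% and 61.6%. Regions that lie close together count each other, so these counts are not independent and the intervals are too narrow. Without the 48 losing regions in the 5 windows described next, 20.7% had another within 100 kb. These windows were chosen for their many losing regions, so leaving them out was bound to favour a lower share. The gaining regions kept their own fullest windows, so the 20.7% cannot be set against their share. Many of the losing regions less than 10 kb apart lay in these windows, and the share within 10 kb was not computed without them.

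Windows of 1 Mb with at least 5 losing regions numbered 5, and windows with at least 5 gaining regions numbered 3, none with more than 5. The window 8:126000001-127000000 held 16 losing regions, more than any other. The windows 11:3000001-4000000 and 6:114000001-115000000 held 9 each, and 11:68000001-69000000 and 8:19000001-20000000 held 7 each. Together they held 48 of the 691. When regions were ranked by the deposited signal, these counts became 14, 7, 2, 5 and 9 in the same order. The window on chromosome 6 thus lost most of its regions under that ranking. With only peaks whose p was at least 10 times lower than the weakest of their list, the counts were 25, 9, 15, 5 and 3. Leaving out 1 library gave 22 to 38 losing regions in the first window, 10 to 14 in the second, 14 to 21 in the one on chromosome 6, 7 to 12 in the fourth and 8 to 16 in the last. The highest of these were 38 without G2 replicate 2 in the first window and 16 without G128 replicate 2 in the last. With 1 library left out the rule is easier to meet, and over all autosomes the 691 became 1449 to 2223. Higher counts in a window therefore do not by themselves show a dependence on a particular library.

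In 3 of these windows the losing regions lay in short stretches packed with accessible regions. Bins of 100 kb held a median of 2 shared regions, and the 5 fullest of 9510 bins were 6:114500001-114600000 with 39 regions, 8:126100001-126200000 with 33, 6:114400001-114500000 with 29, 8:126000001-126100000 with 27 and 11:3000001-3100000 with 26. All 5 held losing regions, 6, 11, 3, 5 and 8 in that order, and 0 gaining regions. The next 6 bins, each with 18 to 22 shared regions, held 0 to 2 losing regions, apart from 11:68800001-68900000, which held 5 of its 18. These stretches were singled out after their values were seen.

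The stretch on chromosome 8 ran from 126001200 to 126178488, from its first to its last shared region, and held 60 of them, a median of 1.703 kb apart and 885 bp wide. Both G128 percentiles were above both G2 percentiles in 49 of the 60, and the reverse held in 2. Over all ranked regions these orders held in 21.9% and 21.3%. The median percentile of the 60 regions was 56.6 and 59.3 on G128 and 41.4 and 48.7 on G2. Their median summit held 61 and 101 intervals on G128 and 62 and 91 on G2. The summits over the background had a median difference of −0.08 on the log2 scale here, while they were 0.34 higher on G2 outside the 3 stretches. The bin before the stretch had 3 shared regions with a median difference of 0.62 points, and the bin after it 6 with −1.23 points.

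The stretch on chromosome 6 held 68 shared regions, a median of 2.38 kb apart and 1080 bp wide, of which 9 lost rank. The G128 percentiles were above the G2 percentiles in 47 of the 68 and below them in 0. The median summit held 56 and 96.5 intervals on G128 and 68.5 and 89 on G2, a median difference over the background of 0.05 on the log2 scale. The 100 kb bins before and after it held 0 shared regions.

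The stretch on chromosome 11 lay at 3023212 to 3099790, near the beginning of the sequence, and held 26 shared regions of a median of 1403 bp, and 8 of them lost rank. The median percentile was 57.6 and 51.8 on G128 and 39.1 and 32.4 on G2. The G128 values were above the G2 values in 20 of the 26 regions and below them in 1. The largest difference here was at 11:3095551-3097143, with 30.8 points. The bin after it held 5 shared regions with a median difference of −5.83 points.

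Together the 3 stretches held 154 shared regions, of which 33 (21.4%) lost rank, against 2.42% elsewhere. The median difference was 10.8 percentile points in favour of G128 in the stretches and −0.06 points elsewhere. The plot of percentile differences along the 3 stretches shows that regions below the margin were mostly shifted the same way. On chromosomes 8 and 6 many regions followed each other at nearly even steps, close to the median spacings of 1.703 and 2.38 kb. The counts treat them as separate regions. Whether they are separate sites, or lie in repeated sequence, was not tested. The number of DNA copies of these stretches in either culture was not measured here, and its part in the result was not tested.

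**Figure D5:**
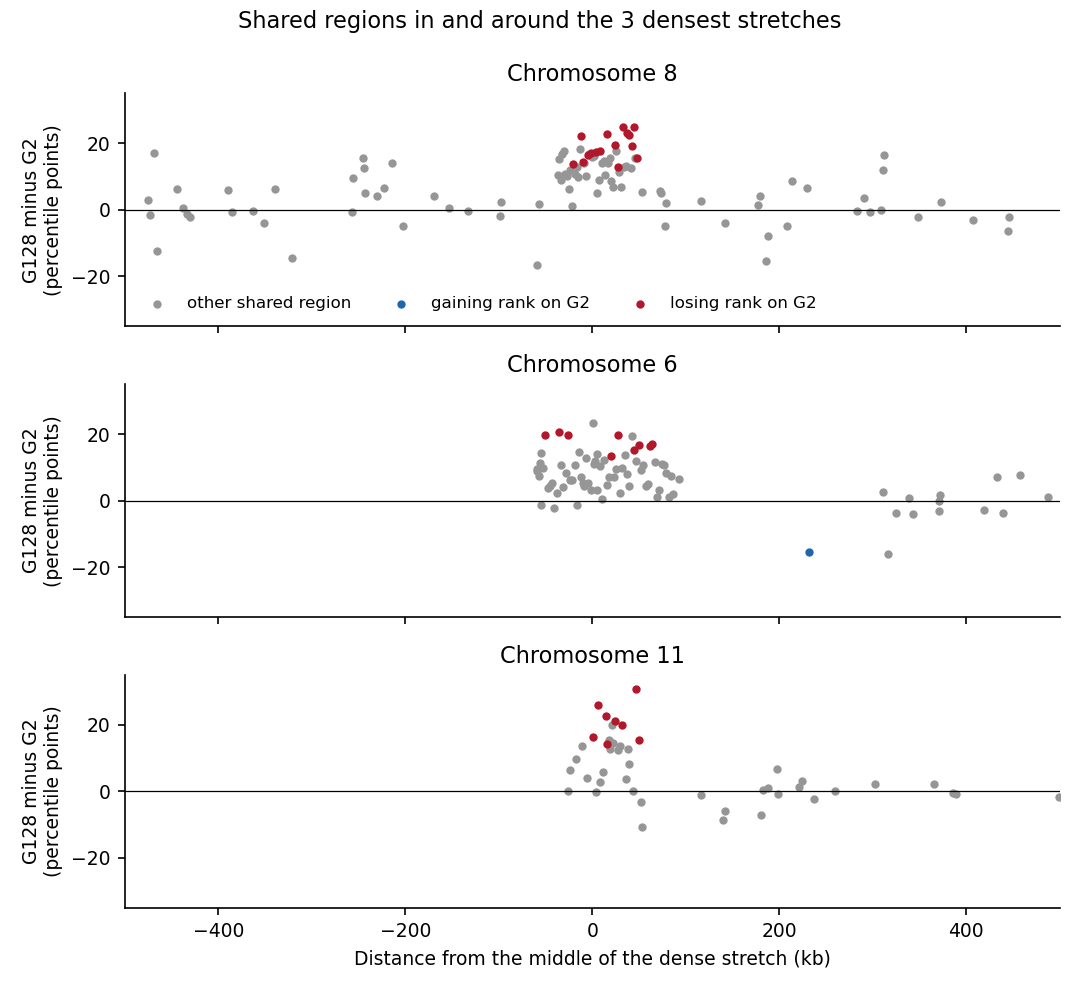
Difference between the mean G128 and the mean G2 percentile of each shared region (vertical axis, percentile points) by its distance in kb from the middle of the stretches on chromosomes 8, 6 and 11 (horizontal axis). Inside the stretches most points lie above 0, with medians of 13.2, 8.61 and 13.1 points, and outside them the points scatter around 0.

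The other 2 windows were less dense. In 11:68000001-69000000 the 7 losing regions lay among 49 shared regions, and 5 of the 7 lay between 68800001 and 68900000. In 8:19000001-20000000 there were 29 shared regions, 7 of which lost rank, with a median difference of 9.33 points over all 29. Their summits were low in every library, with medians of 38 and 45 intervals on G128 and 35 and 42 on G2. The region at 8:19920306-19921717, with 55 and 73 intervals on G128 and 32 and 50 on G2, had the largest margin of this window, 27.6 points. Its percentiles were 51.8 and 44.4 on G128 and 6.8 and 16.8 on G2, a difference of 36.3 points. Without G128 replicate 1 the peaks of the other libraries were merged anew. The first merged region that overlapped this one then had a difference of 5.12 points. G128 replicate 1 had 1 peak here and each other library had 2. The value of 5.12 points may therefore belong to a part of the region without this summit, which was not tested.

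Shorter clusters were seen elsewhere. On chromosome 1, 5 losing regions lay between 172963816 and 173012265, and among them 1:173004380-173004750 had 68 and 89 intervals on G128 and 47 in both G2 libraries. The 3 runs of 3 neighbouring losing regions were 2:3059104-3156995, 8:19723871-19763703 and 8:47851401-47954073. The first of these lay near the start of chromosome 2, where 2:3156543-3156995 had 39 and 54 intervals on G128 and 25 and 35 on G2. Clusters other than the 1 Mb windows were named after their values were seen.

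In the first 4 Mb of the assembled chromosomes lay 19 of the 691 (2.75%, Wilson 95% interval 1.77 to 4.25%), against 6 of 692 gaining regions (0.867%) and 231 of the remaining 25919 (0.891%). Of the 19, 9 lay on chromosome 11, 3 on chromosome 2 and 3 on chromosome 4. Without the 5 windows the counts were 10 of 643 losing regions (1.56%, 0.847 to 2.84%) and 182 of 25658 remaining ones (0.709%), whose interval was 0.614 to 0.820%. Of these 10, the 3 on chromosome 2 were neighbours in 1 run, and 3 lay on chromosome 4. Such regions are not independent, so the intervals cover counting error only and are too narrow for a comparison. The share of 2.75% was 1.27% without G128 replicate 1 and 1.59% without G2 replicate 2, and 1.66% at a margin of 5 points.

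Regions with a peak in each G128 list but in no G2 list also lay near losing regions more often than near others. Within 10 kb of such a region were 15 of the 691 losing regions (2.17%, Wilson 95% interval 1.32 to 3.55%), 1 gaining region (0.145%) and 152 of the remaining regions (0.586%). Regions close together are not independent here either, so the interval covers counting error only. Regions with a peak in each G2 list but in no G128 list lay within 10 kb of 55 losing regions (7.96%), 84 gaining regions (12.1%) and 2584 remaining regions (9.97%). The nearest shared regions on either side that did not themselves lose rank had a median difference of 0.59 points towards G128, and 55.9% of the 1271 were higher on G128, against 49.5% of all ranked regions.

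Which regions met the rule depended on the value ranked. Ranked by the largest deposited signal of a region, 639 regions lost and 820 gained at least 10 points, and 399 of the 691 were among the losing ones. Without G128 replicate 1 or 2, or without G2 replicate 1 or 2, the counts of losing regions were 2041, 2223, 1449 and 1639. Among them were 631, 682, 684 and 688 of the 691. A rule with 1 library fewer is easier to meet, so most of the 691 were bound to meet it again. At a p limit 10 times stricter than the weakest peak of each list, only 19657 regions could be ranked. Of these, 528 lost and 449 gained rank, and 311 of the 691 were among the losing ones. How many of the 691 could no longer be ranked was not counted, so the 311 do not measure a change of rank alone. Since the ranks chose the regions, no test of single regions was made.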

How the data were processed

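The 4 peak lists deposited by the authors, 1 per library, were used as they stand. Per the submitters' processing notes, Bowtie2 2.2.5, SAMtools 1.7 and Genrich 0.5 were among the tools and mm9 was the build. Settings, read shifting and the treatment of duplicates are not given in the sources used here. Each deposited peak has a score, a signal, −log10 p- and q-values and a summit position. The authors' −log10 p-values gave the ranks, and their signal gave an alternative ranking. The deposited score and q-value entered no result.

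Pileups were recovered from the −log10 p-values, by fitting their normal quantiles for the 100 lowest distinct p-values of a list against the logarithms of successive whole numbers. All recovered pileups lay within 0.00179 of a whole number. The recovery, the merging and the rule for members were tested on simulated data. A region's value was the largest of its peaks in a library, and ties shared their mean rank. Regions named by rule are the 20 largest margins, the 5 highest G128 percentiles, the 3 widest, the 3 on each side of the threshold and the 1 Mb windows with at least 5 members. The members, the rule and the named groups were chosen with earlier results of these data known.

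Alternatives concerned the value ranked, the margin, the overlap, the peaks used, the replicate block and each library left out. The 4 RNA libraries were not analysed here. The versions used were Python 3.11.15, numpy 2.4.6, pandas 2.3.3 and scipy 1.17.1.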

Additional observations from a re-analysis of the deposited data

How the results depend on the processing

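The number of losing and gaining regions followed the margin, with 1932 and 1806 at 5 points, 253 and 259 at 15, and 102 and 103 at 20. With 50% reciprocal overlap, where fewer regions could be ranked, they were 417 and 402. With a p limit 10 times stricter than the weakest peak of each list, 19657 regions could be ranked, of which 528 lost and 449 gained rank. Leaving out each library in turn, where 1 library stands for a group, gave 1449 to 2223 losing and 1438 to 2202 gaining regions. With the replicate block, which compares libraries of the same number, 1089 regions lost rank. It asks less of a region, since libraries of different numbers are not compared, and whether the numbers mark shared cultures is not stated. The median width of losing regions was 405 bp with reciprocal overlap, 648 bp at the stricter p, 364 bp as the mean width of the strongest peaks, and 353 to 441 bp without each library. The share with another losing region within 100 kb was 44.3%, 17.0% and 4.90% at margins of 5, 15 and 20 points, 17.7% with reciprocal overlap, 31.4% with the block, 36.6% to 47.7% without each library, and 20.7% without the 5 windows, a setting chosen after the data were seen. At 10 kb and 1 Mb it was 10.3% and 63.1%. With summits divided by the library median, the G2 libraries were below the G128 libraries in 691 losing regions in place of 453. The percentile differences of the 34 named regions kept their sign in 170 of 170 values, from the signal and without each library. By their choice, each G128 percentile of these regions was above each G2 percentile. Leaving out a library could therefore hardly reverse a sign. Of the 170 values, 50 moved by more than the spread between replicates and 10 by over 1.5 times. Among these was 8:19920306-19921717, at 5.12 in place of 36.3 points without G128 replicate 1. The value of 5.12 may belong to another part of that region after the new merging. Also among them were 11:3049447-3052198 and 3:87711179-87712041, at 5.75 and 5.14 in place of 16.4 and 14.4 by the signal. The alternative on transcription starts was not run, since no annotation of mm9 was used. Where a cause is not given, the cause was not tested.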

Other observations

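On the X chromosome, ranked together with the autosomes, 459 regions had a peak in all 4 libraries. By the same rule 6 of them lost rank on G2 and 6 gained rank. In these percentiles 689 of the 691 autosomal regions still met the rule.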
